A study of Mus musculus with 8 samples.

Results

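Cells with a high load of satellite-like transcripts were compared with cells of a low load among the long-term hematopoietic stem cells (LT-HSC) of aged mice, each sequenced on its own. The score of a cell was the share of its transcripts that the deposited tables assign to Gm10800 and Gm26870. The cells were thus selected on the measured counts of these 2 genes. In each library, cells were ranked by score and divided into 3 classes of like size, and the high class was set against the low class with the 2 genes removed from the totals. Of 728 barcodes used in the whole series, 499 carried at least 2000 transcripts. Of these, 495 lay in the 7 libraries with at least 20 such cells, and the high and the low class held 162 cells each, 324 in all. The middle class held 171 cells. Dlk1+ replicate 3 had only 4 such cells and entered no comparison of high with low cells apart from a separate reading without a test. The classes held 27, 8 and 26 cells in Dlk1+ replicates 1, 2 and 4, and 31, 11, 30 and 29 cells in Dlk1- replicates 1 to 4. Because the score chose the cells, the levels of Gm10800 and Gm26870 in the classes are a description and were not tested.

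All cells came from bone marrow of untreated male C57BL/6J wild-type mice aged 18 months. The sort kept cells without lineage markers, CD48 and CD34 and with CD150, Kit and Sca1, and split them by Dlk1 into Dlk1+ and Dlk1-, with 4 libraries of each kind and up to 96 wells per library. High and low cells were thus of the same age, strain, sex and sort, and came from the same libraries. Dlk1, the product of an imprinted gene, is a surface protein related to the ligands of Notch. Marrow was pooled from several kinds of bone, and no label ties a library to an animal, so p-values measure the spread between libraries, which may be technical. Plate 5 held replicates 1 and 2 of each sort and plate 6 the others, by the names of the tables.

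Major satellite DNA forms long tandem arrays around the centromeres of most mouse chromosomes, where it is packed into heterochromatin. It is transcribed at a low level in many cells, and more of its RNA has been described where heterochromatin is loosened, under stress and in tumours. Expression tables report such RNA through the few annotated genes whose sequence is satellite, because the arrays themselves carry no gene models. The method used here, mCEL-Seq2, primes on poly(A) and counts the 3' ends of RNA with a molecular identifier, so stretches rich in A inside a transcript can be primed as well.

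The sequences of the score genes are shown because they define the score. Gm10800 is annotated at chr2:98666547-98667301 on the minus strand and Gm26870 at chr9:3000282-3038313 on the minus strand (mm10, GENCODE release M21). The stretch of each transcript around their longest shared run is printed 5' to 3', with the 99 shared bases in capitals. The capitals of Gm10800 are the reverse complement of those of Gm26870.
Gm26870: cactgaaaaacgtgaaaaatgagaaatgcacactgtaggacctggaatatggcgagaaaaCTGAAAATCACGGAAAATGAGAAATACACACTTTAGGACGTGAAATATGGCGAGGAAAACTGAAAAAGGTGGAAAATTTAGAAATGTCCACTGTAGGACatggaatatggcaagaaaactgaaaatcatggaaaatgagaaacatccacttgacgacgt
Gm10800: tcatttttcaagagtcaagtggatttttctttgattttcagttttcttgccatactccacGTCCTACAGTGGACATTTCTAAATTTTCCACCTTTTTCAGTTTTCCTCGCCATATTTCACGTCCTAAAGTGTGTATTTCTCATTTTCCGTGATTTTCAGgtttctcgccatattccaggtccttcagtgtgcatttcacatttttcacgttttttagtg
Reverse-complemented, Gm10800 aligned to Gm26870 over 654 bases with 609 identical (93.1%). As annotated, only 22 bases aligned. Gm26870 repeated itself with a period of 234 bases, at which 81.5% of its bases were equal 1 period on, and this is the unit length known for mouse major satellite DNA. Gm10800 alone did not show that period, its best being 225 bases with 56.3% equal. By their alignment, the 2 genes hold opposite strands of like sequence. Gm26870 was rich in A (45.8% of its 1170 bases) and Gm10800 poor in it (18.3% of its 660 bases). Reads from many satellite copies could be assigned to either gene, so both values are uncertain as values of single genes.

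The load differed widely between libraries and between cells of a library. The median cell of Dlk1+ replicates 1 to 4 had a score of 26.9%, 20.5%, 15.3% and 8.65%, and that of Dlk1- replicates 1 to 4 had 23.6%, 21.4%, 18.4% and 8.52%. Replicate 4 was lowest in both groups, and the replicates of the same number lay within 3.30 percentage points of each other. The median score over the 7 libraries used was 15.01% to 44.6% in the high class and 4.08% to 15.5% in the low class. The median of the high class was 2.38 to 4.23 times that of the low class. The classes do not mark separate populations. In Dlk1- replicate 3, for example, the lowest cell of the high class had 23.2% and the highest cell of the middle class 23.1%, and the lowest cell of the middle class had 15.4% against 15.1% for the highest of the low class. Because the limits were set per library, a low cell of Dlk1+ replicate 1 (up to 19.98%) could carry more than a high cell of Dlk1+ replicate 4 (from 11.1%).

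**Figure D1:**
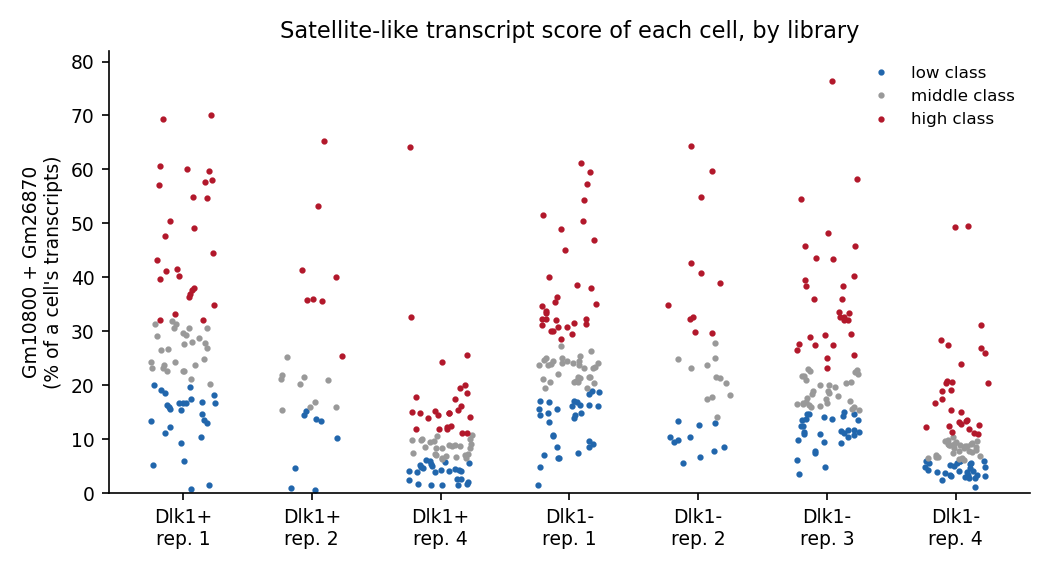
Score of each cell (Gm10800 plus Gm26870, % of its transcripts) in the 7 libraries used, 1 point per cell, coloured by class and spread sideways at random. Scores form a continuous range in each library, with the highest cells between 49.6% and 76.5%, and replicate 4 lies lowest in both sort groups.

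Gm10800 and Gm26870 moved together from cell to cell. Across the cells of a library, Pearson's r of their log2 counts was 0.974 to 0.994 (26 to 94 cells, whose counts share the depth of the cell). The median count of Gm10800 per cell was 527 to 2092 transcripts in the high class and 147 to 564 in the low class. For Gm26870 it was 196 to 970 and 49.8 to 183. The ratio of Gm26870 to Gm10800 was 1.02 to 1.17 times as high in the high class as in the low class, and higher in 7 of 7 libraries. High cells had fewer transcripts of all other genes, with a median of 2019 to 4449 against 2824 to 5266 in low cells, lower in 7 of 7 libraries. Those transcripts are part of the score's denominator, so the choice of cells bears on this difference. Their r with the score across cells was -0.489 to -0.179 on the log2 scale of the other transcripts.

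Some of the load was also found where no cell was expected. Barcodes outside the set used by a library carried 486 to 4263 molecular identifiers per library, and 11.0% to 13.5% of these were of the 2 genes, against 9.27% to 27.9% on the used barcodes. In replicates 4 the unused barcodes thus had at least as high a share (11.0% against 9.27% in Dlk1+, 11.2% against 10.9% in Dlk1-). The part of free RNA or of misassigned barcodes in the scores was not tested. Libraries of one sort group used the same set of well barcodes. Scores of the same barcode in 2 libraries had r of -0.12 to 0.714 over 23 to 90 shared barcodes, and the highest value was that of Dlk1- replicates 2 and 4 (30 barcodes).

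The cells carried the transcripts of LT-HSC at both ends of the score. The transcription factor gene Hlf had 423 counts over the high class and 474 over the low class, Mecom had 115 and 135, and the receptor gene Kit had 309 and 424. The 7 LT-HSC markers summed to 1626 to 2381 CPM in the high and 1468 to 2171 CPM in the low class, where CPM are counts scaled to a common total of all transcripts other than Gm10800 and Gm26870. None of the 5 tested LT-HSC markers was called different, and all 5 lay above 0. Slamf1 and Fgd5 did not enter the test. Slamf1 had 38 counts over the high class against 77 over the low class, and Fgd5 had 54 against 65. Of the myeloid markers, the protease gene Prtn3 had 216 counts over the high and 283 over the low class, within the range of these, and was not called (0.10, limma-voom adjusted p 0.875). Most other markers of other cell types were low. T cell markers had 1 count in the high class and 0 in the low class, but only 1 of the 6 had an entry in the deposited counts. Hba-a2 and Alas2 had no counts in either class. Lyz2, Csf1r, Ighm and Cdh5 had no entry, and whether they could be counted is not known. Hba-a1, a globin gene, had 32 and 38 counts. Of the other myeloid markers, S100a8 had 4 and 1 counts and Mpo 0 in both, while the middle class held 855 and 164. The summed depth outside the 2 genes was 16727 to 128900 transcripts per high class and 25892 to 150972 per low class, lowest in Dlk1+ replicate 2.

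Of 1514 genes tested, 74 (4.89%) were higher and 6 (0.396%) were lower in the high class, 80 (5.28%) in all. A gene was called at an adjusted p under 0.05 in limma-voom with library as a block and Benjamini-Hochberg adjustment over all genes tested, which held 68.4% of the transcripts outside the 2 score genes. Predicted and repeat-bearing genes had the highest differences, up to 3.48 on the log2 scale. Called mitochondrial genes were 0.17 to 0.73 higher and called immediate early genes 0.39 to 1.29 higher. Of all genes tested, 797 lay above 0 and 717 below 0. Counts of list members above or below 0 stand beside this split and were not tested. The sign was the same in all 7 libraries for 50 of the 74 and for 4 of the 6, against 67 (4.43%) and 22 (1.45%) of all genes tested. On plain CPM, without TMM scaling, it was the same for 40 of the 74 and 5 of the 6, against 43 and 66 of all genes tested. Counts of libraries given for a gene are on the TMM scale, and the plain CPM count is added where it differs for a gene named with one. The middle class did not enter the test. Its mean level lay between those of the high and the low class for 62 of the 74 and for 6 of the 6. The share of all tested genes with such a mean was not counted. A wide gap between high and low, for which genes were called, leaves more room for a value between them. These counts are thus a description. For 19 tested genes (1.25%) the lowest high class exceeded the highest low class, and for 1 (0.0661%) the reverse held. With library size alone in place of TMM scaling (trimmed mean of M-values, which discounts a few dominant genes), the split was 57 higher and 39 lower, and the median of all tested genes moved from 0.02 to -0.11. The differences given here are relative to the TMM scale. Without the 26 cells whose score was over 50%, 36 genes were higher and 6 lower, and 40 of the 80 calls remained. That setting was chosen after the data had been seen.

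**Figure D2:**
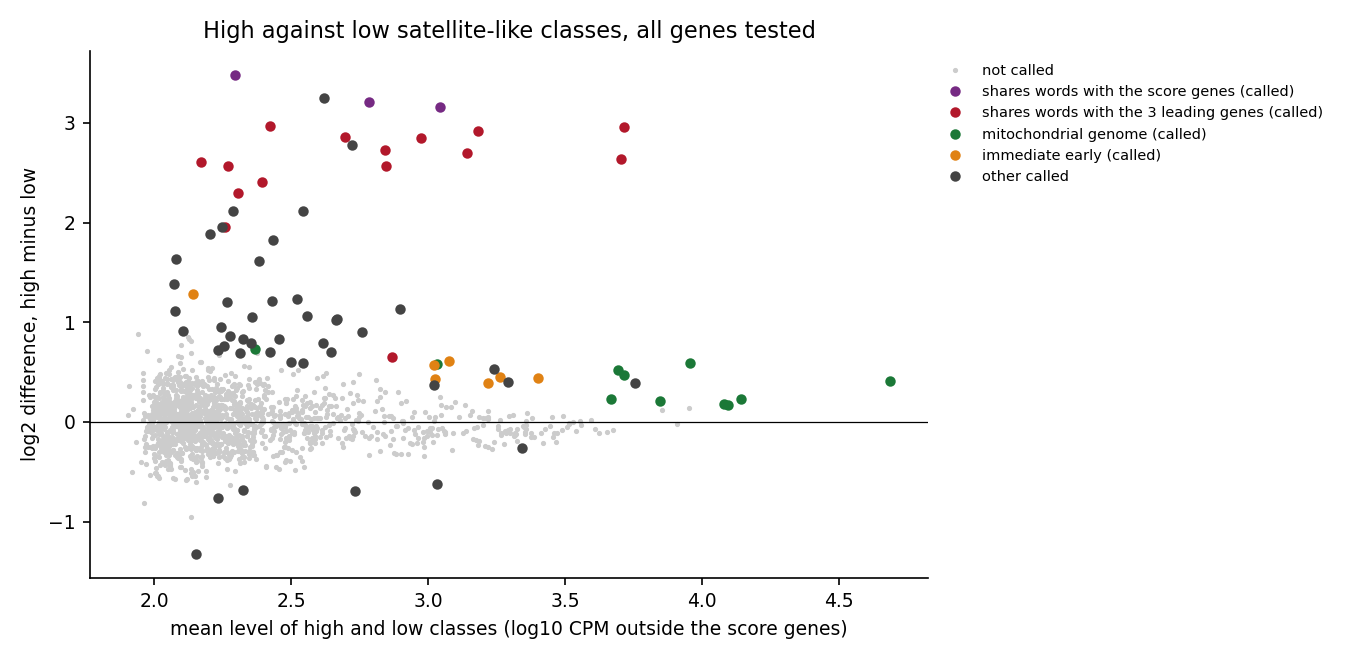
Log2 difference of high minus low class (vertical) against the mean level of both classes (log10 CPM, horizontal) for the 1514 genes tested, with called genes coloured by group and the rest in grey. Called genes that share runs of 20 bases ("words") with the score genes or with the 3 leading genes lie between 2 and 3.5, apart from Kcnq1ot1 at 0.66 and Gm43238 at 1.95, while mitochondrial genes are abundant and lie below 0.8.

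Genes with the same satellite sequence as the score genes moved with them. Gm10715, Gm10717 and Gm10719 are annotated as coding genes on the plus strand of chromosome 9 that overlap the span of Gm26870, and each shared over 400 words of 20 bases with the score genes. Gm10715 was at 846, 1576 and 3300 CPM (lowest, median and highest library) in the high class and at 46.4, 254.6 and 417 in the low class, without overlap. The difference was 3.16 (SE 0.21, limma-voom adjusted p 2.78e-12). Gm10717 differed by 3.21 (SE 0.23) and Gm10719 by 3.48 (SE 0.32), and both were higher in 7 of 7 libraries without overlap. Summed, the 3 genes were at 1591 to 5846 CPM in the high and 133 to 598 in the low class. These 3 were all the tested members of the satellite-like list (3 of 3, median 3.21), and their reads could have been split among copies or between strands, since the use of strand in counting is not given in the sources used here. They are further readings of the score's own repeat, not support for it.

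A second family of transcripts had the smallest p-values. Its leading genes were Gm29055, Gm21833 and Gm37158, predicted genes on chromosomes 1, 16 and Y, at chr1:86774819-86776528 (plus strand), chr16:82828382-82829881 (plus) and chrY:16691330-16697033 (minus). Gm29055 lies in an intron of another gene on the same strand, by its annotated type. Of the genes tested, 17 shared at least 100 words with these 3 (themselves included), and 15 of the 17 were called higher. The threshold and the grouping were chosen after the values had been seen, so the count is a description. The remaining members were Rock1 and Samsn1, coding genes that shared 247 and 121 words, at -0.26 and -0.03. A stretch of Gm29055, Gm37158 and Gm37954 is printed because these have the words in common. The capitals mark a run of 20 bases that 8 of the 15 called genes hold, Gm26905 in reverse complement.
Gm29055: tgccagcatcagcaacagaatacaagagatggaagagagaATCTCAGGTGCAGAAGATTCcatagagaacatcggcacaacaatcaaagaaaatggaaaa
Gm37158: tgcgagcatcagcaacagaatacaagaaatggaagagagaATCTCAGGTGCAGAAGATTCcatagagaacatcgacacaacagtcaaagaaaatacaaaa
Gm37954: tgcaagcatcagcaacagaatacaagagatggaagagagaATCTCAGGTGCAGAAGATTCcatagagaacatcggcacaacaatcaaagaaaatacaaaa
Stretches of this kind are known from the first reading frame of mouse LINE retrotransposons, which are interspersed in many copies and are rich in A on the coding strand. No repeat annotation was searched, and reads from other genomic copies could have been assigned to these genes, so each is uncertain as the source of its reads.

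Gm29055 was at 3857, 5706 and 19292 CPM in the high class and at 702, 1350 and 2475 in the low class. The lowest high library lay above the highest low library, and the difference was 2.64 (SE 0.12, limma-voom adjusted p 3.58e-15). Gm21833 was at 3810, 5309 and 28127 against 618, 1213 and 2181 CPM, a difference of 2.96 (SE 0.15). Gm37158 was at 1234, 2302 and 7067 against 116, 361 and 601 CPM, a difference of 2.92 (SE 0.19). In each of the 3, Dlk1+ replicate 1 gave the highest high class, and no group overlapped. Gm37954, Gm21750, Gm21962, Gm17555, A430073D23Rik and Gm37404 of the same family were higher by 2.70, 2.73, 2.85, 2.86, 2.57 and 2.41, each in 7 of 7 libraries. Gm37404 alone of these overlapped, with 59.8 CPM in the high class of Dlk1+ replicate 2 and up to 163 in a low class. Kcnq1ot1, an antisense noncoding RNA of an imprinted domain that also holds these words, rose by less (0.66, SE 0.11). Gm17615 (2.77) and Gm37746 (3.25) moved like the family, but Gm17615 had no match in the annotation and Gm37746 shared too few words to be grouped.

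Per cell, the called genes of the family were higher in the typical high cell, and single cells added much to the sums. These 15 genes were chosen because they were called higher in the same cells, and Rock1 and Samsn1 were left out. High above low thus follows from the choice, and the values are a description. The 15 genes made up 0.708% to 3.22% of the transcripts outside the score genes in the median high cell of a library and 0.276% to 0.797% in the median low cell, and each of the 162 high and 162 low cells had at least 1 transcript. In Dlk1+ replicate 1, however, 1 cell gave 49.8% of the family's transcripts in the high class, and in Dlk1+ replicate 4 1 cell gave 62.7%. The cell of Dlk1+ replicate 1 was unlike its class, with a score of 70.1%. Outside the score genes, 0.488% of its transcripts were of ribosomal proteins and 3.59% mitochondrial, against class medians of 10.7% and 16.8%. As sums, the family stood at 14628 to 76494 CPM in the high, 3936 to 16043 in the middle and 2796 to 8133 in the low class, and the ratio of high to low was 3.68 to 10.0.

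**Figure D3:**
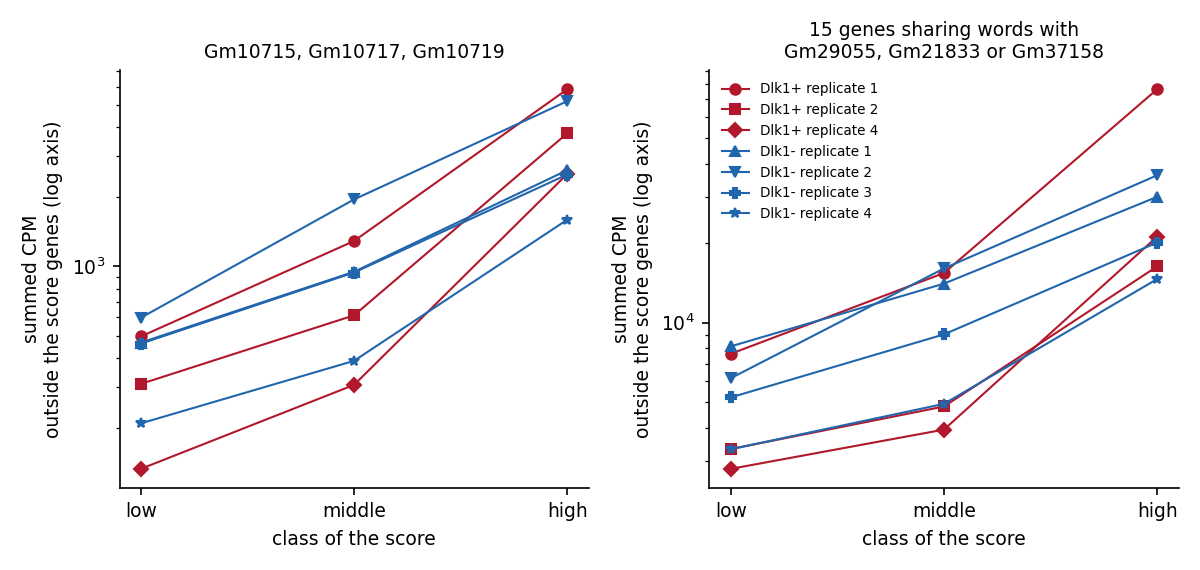
Summed CPM (log axis) of Gm10715, Gm10717 and Gm10719 (left) and of the 15 called genes that share words with Gm29055, Gm21833 or Gm37158 (right) in the low, middle and high class, with 1 line per library. The middle class lies between the others in 7 of 7 libraries for both groups, and Dlk1+ replicate 1 reaches the highest levels. The genes on the right were chosen as called higher in these cells, so high above low follows from the choice.

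By annotated type, the calls were concentrated in provisional and noncoding genes. Of 15 tested genes of the type TEC (provisional genes that rest on single-exon transcript evidence), 14 (93.3%) were higher. So were 6 of 13 lincRNA genes (46.2%), both misc_RNA genes, 7 of 35 without a match in the annotation (20%) and 41 of 1408 coding genes (2.91%). None of 22 processed pseudogenes was called. Annotated transcripts of 11 of the 67 matched genes called higher (16.4%) consisted by over 10% of words found in more than 50 other genes, against 12 of 1406 genes not called (0.853%). The filter on low counts could be met by the high classes alone. A gene rare in low cells could thus enter the test because it was high in the high class. These shares are therefore a description. A further shared sequence was that of the misc_RNA genes Gm22993 (1.64 higher) and Gm27956 (1.24 higher). At a minimum of 20 shared words it was held by 220 tested genes, of which 15 were higher. The second family was grouped at 100 words, so its count is not comparable. The median of the 220 genes was 0.07, little beyond the 0.02 of all tested genes. Those that share 100 words or more were not summarised apart.

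Mitochondrial transcripts were higher in the high class, by much less. Of 14 tested genes of the mitochondrial genome, which encodes subunits of the respiratory chain and the organelle's ribosomal RNA, 11 were higher and 0 lower (median 0.23), and all 14 lay above 0. With library size alone 12 of 14 lay above 0 and 5 were higher. On plain CPM, the called mt-Nd4, mt-Nd1 and mt-Atp6 were higher in only 4, 3 and 2 of 7 libraries, against 7, 6 and 6 on the TMM scale. The other called mitochondrial genes were higher in 5 to 7 libraries on plain CPM. The small ribosomal RNA mt-Rnr1 was at 5562, 11284 and 13993 CPM in the high and 3980, 8765 and 10545 in the low class. Though the groups overlap, the high class was higher in each of the 7 libraries (0.59, SE 0.05, limma-voom adjusted p 2.18e-10). The large ribosomal RNA mt-Rnr2 rose by 0.41 (SE 0.05), and mt-Nd5 and mt-Nd2, subunits of complex I, rose by 0.52 (SE 0.07) and 0.47 (SE 0.07). The complex IV subunits mt-Co1 and mt-Co2 rose by 0.23 and 0.18.

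A few cells weighed heavily in this result. Cells with over 25% mitochondrial transcripts numbered 27, of which 22 were in the high, 4 in the middle and 1 in the low class, and 17 of them came from Dlk1- replicate 3. Without them, a setting chosen after the data had been seen, 5 of 14 mitochondrial genes were higher, 9 of 14 lay above 0 and the median was 0.06. The mitochondrial share of the median cell was 14.5% ± 4.56 in the high and 12.6% ± 1.69 in the low class (SD, n = 7 libraries). The difference of 1.89 percentage points was not significant (two-sided exact paired permutation over libraries, p = 0.25, adjusted over 3 measures 0.25), with 4 of 7 libraries higher. Dlk1- replicate 3 differed by 10.1 points and the other libraries by -1.07 to 2.98, and without it the difference was 0.528 points. It was 0.651 with classes formed within bins of depth and 0.691 without the 27 cells. Taken as means over cells, the share was higher in 7 of 7 libraries (2.99 points, exact permutation p 0.0156, adjusted 0.0234). A high mitochondrial share is widely used as a sign of damaged cells, and its part in the other differences was examined only by leaving these cells out: 54 genes were then higher and 5 lower, with 57 of the 80 calls kept and the sign of mt-Co2 (-0.0076) and mt-Atp6 (-0.010) turned.

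**Figure D4:**
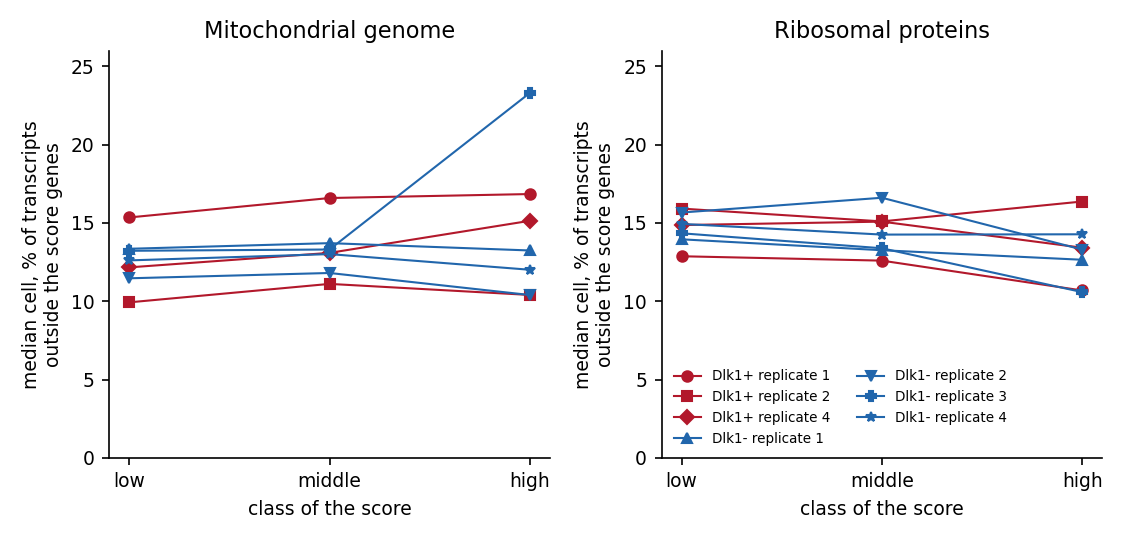
Share of mitochondrial-genome transcripts (left) and of ribosomal protein transcripts (right) in the median cell of the low, middle and high class, in % of transcripts outside the score genes, with 1 line per library. Dlk1- replicate 3 rises to 23.3% mitochondrial in its high class, the other libraries stay between 9.93% and 16.8%, and the ribosomal protein share is lower in the high than in the low class in 6 of 7 libraries.

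Most ribosomal protein genes lay slightly below 0, and 1 was called. Of 73 tested genes of this family, 60 lay below 0 (median -0.11), and only Rpl3, a protein of the large subunit, was called lower (-0.26, SE 0.07, adjusted p 0.0218 in limma-voom). Rpl3 was lower in 6 of 7 libraries on the TMM scale and in 7 of 7 on plain CPM. With library size alone, 17 of 73 were lower and none lay above 0. The share of ribosomal protein transcripts in the median cell was 13.0% ± 2.02 in the high and 14.7% ± 1.04 in the low class (SD, n = 7). The difference of -1.61 points did not pass after adjustment over the 3 measures (exact paired permutation p 0.0313, adjusted 0.0938), with Dlk1+ replicate 2 going the other way. It did pass with means over cells (-2.15 points, adjusted p 0.0313, exact permutation). Genes detected per cell, at 1000 molecules outside the score genes, were 650 ± 18.7 in the high and 663 ± 5.01 in the low class (SD, n = 7), a difference of -12.9 that was not significant (exact permutation p 0.0938, adjusted 0.141). With means over cells it was -26.8 (adjusted p 0.0234, exact permutation). It was -7.50 without Dlk1- replicate 3 and -7.29 without the 27 cells rich in mitochondrial transcripts. The translation factor list had 0 calls in 18, with 14 below 0 (Eef2, an elongation factor, -0.15; Eif4a2, an initiation helicase, 0.30).

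Immediate early genes, which encode transcription factors and regulators induced within minutes of a stimulus, were higher in the high class. Of 18 tested, 7 were higher and 0 lower (median 0.45), and 18 lay above 0 (17 with library size alone). Junb was at 671, 1280 and 2033 CPM in the high and 700, 852 and 1468 in the low class. The groups overlap, and only Dlk1- replicate 2 was lower in its high class (0.61, SE 0.10, limma-voom adjusted p 0.000127). Egr1, a zinc finger factor, rose by 0.57 (SE 0.10), with 777, 1269 and 1538 CPM against 657, 934 and 1034. Fos and Jun, which pair to form AP-1, rose by 0.44 (SE 0.08) and 0.45 (SE 0.09), each in 7 of 7 libraries on the TMM scale and in 5 of 7 on plain CPM. The other calls were Klf4 (1.29), Jund (0.39) and Zfp36 (0.43), a decay factor of AU-rich messenger RNA. The uncalled members included Dusp1 (0.49, adjusted p 0.118), Socs3 (0.69, adjusted p 0.0702) and Nr4a1 (0.38, adjusted p 0.293), all limma-voom values. On plate 5 alone 0 of 16 tested members were called and 12 lay above 0, and on plate 6 alone 10 of 20 were higher and 20 lay above 0. The difference between plates was not tested.

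**Figure D5:**
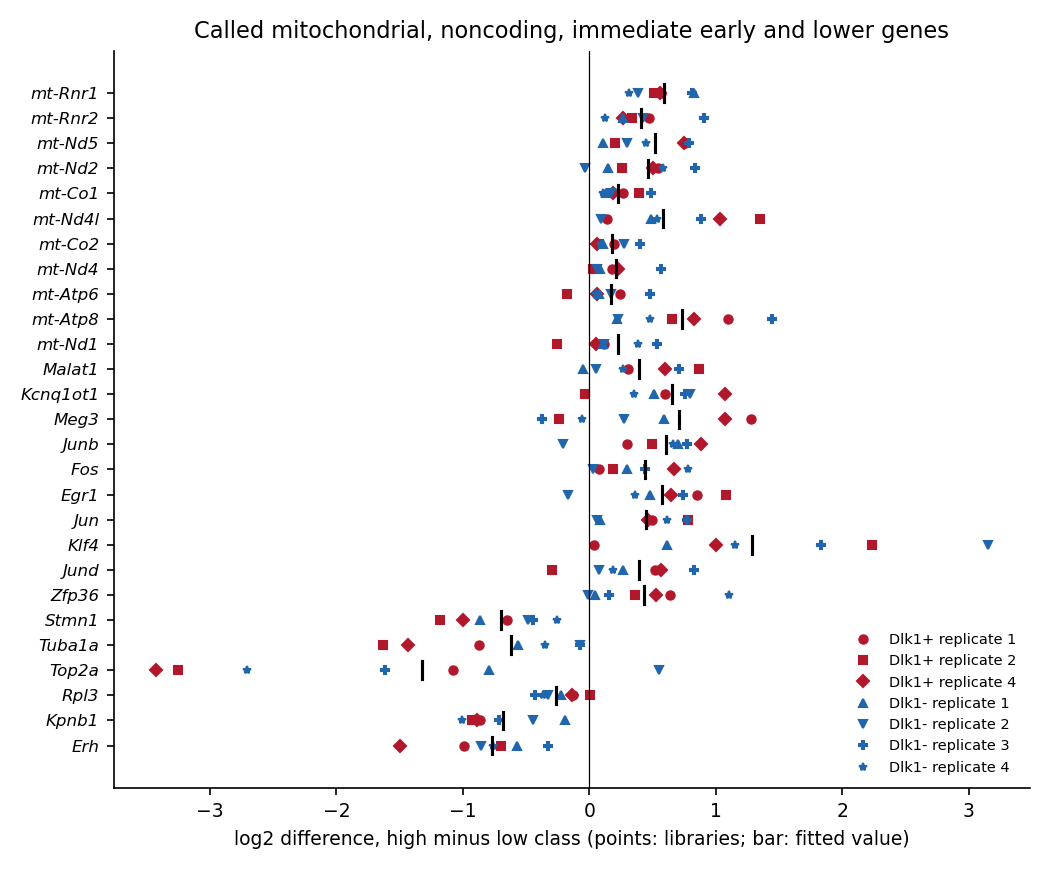
Log2 difference of high minus low class in each library (points, by sort group and replicate) and the fitted value (black bar) for called mitochondrial, noncoding and immediate early genes and for the 6 genes called lower. Points of mt-Rnr1, mt-Rnr2, mt-Nd5, Fos, Jun and Klf4 lie above 0 in 7 of 7 libraries on the TMM scale (on plain CPM Fos and Jun in 5 and Klf4 in 6), while Meg3 has 3 libraries below 0, and Stmn1, Tuba1a, Kpnb1 and Erh have 7 of 7 below 0.

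Among nuclear and other long noncoding RNA, 3 of 7 tested were higher and 5 lay above 0 (also with library size alone). Malat1, an abundant RNA of nuclear speckles, was at 3248, 6643 and 9129 CPM in the high and 3362, 5436 and 6710 in the low class. It was higher in 6 of 7 libraries on the TMM scale and in 5 of 7 on plain CPM (0.39, SE 0.07, limma-voom adjusted p 8.54e-05). Its transcript, like those of Kcnq1ot1 and Zfp36, holds the further sequence shared with Gm22993. Meg3, an RNA of the imprinted domain that also holds Dlk1, differed by 0.71 (SE 0.20), but only 4 of 7 libraries were higher. Neat1, the scaffold of paraspeckles, was not called (0.25, adjusted p 0.347). Gm42418, a transcript that overlaps ribosomal RNA sequence, rose by 0.53 (SE 0.08), in 7 of 7 libraries on the TMM scale and in 6 of 7 on plain CPM, with 455, 1974 and 4971 CPM against 548, 850 and 3804. Its partner in the list of ribosomal RNA-like transcripts, Gm26917, did not (-0.07, SE 0.22).

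Genes of heterochromatin and of its surveillance gave 1 call. Of 12 tested genes for heterochromatin and centromere proteins, H3f3b alone was called (0.40, SE 0.11, limma-voom adjusted p 0.0214). It encodes the replication-independent histone H3.3. It was higher in 5 of 7 libraries. The heterochromatin protein genes Cbx3 and Cbx5 were at -0.02 and -0.20, the maintenance methyltransferase Dnmt1 at -0.37, the corepressor Trim28 at -0.08 and the remodeller Atrx at 0.23, none of them called. Of 3 tested genes in the list for RNA decay none was called. They were Xrn2, a nuclear exonuclease (-0.07), and Xrn1 (0.35) and Ago2 (0.44), an exonuclease and an RNA interference effector that act mainly in the cytoplasm. Nor was any of 3 for sensing double-stranded RNA or the interferon response (Ifitm2 0.26, Ifitm1 0.11). Most members of these last lists were too low to be tested, with 3 of 21 and 3 of 31 tested, so they set no limit on the rest.

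The 6 genes lower in the high class included 4 that fell in 7 of 7 libraries. Stmn1, a microtubule-destabilising protein gene of dividing cells, was at 212, 369 and 598 CPM in the high and 310, 721 and 1430 in the low class (-0.70, SE 0.15, limma-voom adjusted p 0.00172). Tuba1a, an alpha tubulin, was at 357, 635 and 1448 against 659, 1245 and 3092 (-0.62, SE 0.14). Kpnb1, which encodes the nuclear import receptor importin beta, was at 101, 127 and 265 against 205, 238 and 399 (-0.69, SE 0.19). Erh was at 49.6, 106 and 239 against 152, 195 and 425 (-0.77, SE 0.23). The groups overlap in each of these. Top2a, the topoisomerase of dividing cells, fell by 1.32 (SE 0.36) on 45 counts against 133, with Dlk1- replicate 2 going the other way. It was the only call among 4 tested G2M genes, all of which lay below 0 (median -0.34). None of 5 S phase genes was called, and all lay below 0 (median -0.43), with Mcm7 of the replicative helicase at -0.61 (limma-voom adjusted p 0.407) and Dut at -0.54. Both lists were below 0 with library size alone as well. With classes formed within bins of depth, Top2a was at 0.08 and not called.

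Metabolic genes outside the mitochondrial genome gave no call. All 8 tested glycolysis genes lay below 0 (median -0.21), with Gapdh lower in 7 of 7 libraries (-0.28, SE 0.09, limma-voom adjusted p 0.0851) and Tpi1 at -0.49. Of 36 nuclear genes of oxidative phosphorylation 25 lay below 0 (median -0.17), with Atp5g3 and Ndufa4 both at -0.41. Heat shock genes were split evenly, 7 above and 7 below 0 (Dnajb1 0.38, Hspd1 -0.35), with 0 calls in 14. Of 7 genes of antigen presentation none was called (H2-D1 0.09, H2-T23 0.19).

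Genes of stem cell identity and aging gave 1 call as well. Of 19 tested HSC genes 15 lay above 0 (median 0.11), and Txnip, a redox regulator that binds thioredoxin, was the only call (0.37, SE 0.10, adjusted p 0.0221 in limma-voom, 7 of 7 libraries). Txnip was at 718, 1141 and 1717 CPM in the high and 271, 1096 and 1344 in the low class, which overlap, and it lay at -0.01 with classes formed within bins of depth. Hlf was at 0.33 (adjusted p 0.178) and Procr at 0.41 (adjusted p 0.507). None of 11 HSC aging genes was called, although Mt1, a metallothionein, was lower in 7 of 7 libraries (-0.96, SE 0.30, adjusted p 0.0606 in limma-voom). Selp, the adhesion molecule P-selectin, was at -0.45 (adjusted p 0.33). None of 9 megakaryocyte genes was called (Nfe2 0.30). Other coding genes called higher, named after their values were seen, were the transcription factors Klf9 (0.83) and Nfix (0.60) and the vesicular monoamine transporter Slc18a2 (0.72), each in 7 of 7 libraries on the TMM scale (Slc18a2 in 6 of 7 on plain CPM). Timp3, an inhibitor of metalloproteinases, was too low for the test, with 42 counts in the high and 87 in the low class.

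The load did not differ detectably between the sort groups. The median score was 17.8% ± 7.73 in Dlk1+ and 18.0% ± 6.65 in Dlk1- libraries (SD, n = 4 each, where the value of Dlk1+ replicate 3 is the median of only 4 cells), a difference of -0.148 points (two-sided exact permutation p = 1, where the smallest possible p is 0.0286). Without Dlk1+ replicate 3 the difference was 0.692 points. Over the 4 pairs of same-numbered libraries, the mean difference was also -0.148 points, with an SD of 2.66 points. The smallest possible p of an exact paired permutation is then 0.125. Dlk1 itself was not called between the classes (0.52, SE 0.25, limma-voom adjusted p 0.407), with 5 of 7 libraries higher and 164 counts against 166. The high-low difference itself differed between the sort groups for 6 genes (0.396% of 1514), with 129 at an unadjusted p under 0.05. They were Gm37158 (1.60 larger in Dlk1+, SE 0.24), Gm21962 (1.47), Gm10715 (1.46), Gm37954 (1.39), Gm21833 (1.25, SE 0.18) and Gm29055 (1.04, SE 0.16, limma-voom adjusted p 0.000103). For Gm37158, high minus low was 3.57 to 3.90 in the 3 Dlk1+ and 2.03 to 2.43 in the 4 Dlk1- libraries, without overlap. Gm21833 (2.98 to 3.95 against 2.16 to 2.93) and Gm21962 (3.29 to 4.07 against 1.96 to 3.23) narrowly had none. The ranges overlapped for Gm29055 (2.22 to 3.51 against 2.09 to 2.62), Gm37954 (2.09 to 3.76 against 1.74 to 2.73) and Gm10715 (2.72 to 4.96 against 2.25 to 3.01). How many of all tested genes had no overlap was not counted. The number of calls changed with single libraries. Without Dlk1+ replicate 1 there were 0 calls, and 132 genes were then at an unadjusted p under 0.05. Without Dlk1+ replicate 4 or without Dlk1- replicate 1 there were 3 calls each, and without Dlk1+ replicate 2 or Dlk1- replicate 3 there were 10 each. Without the cells whose score was over 50% there were 2 calls, none of them among the 6.

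The library that was too shallow was read apart. With the minimum lowered to 1000 transcripts, Dlk1+ replicate 3 had 26 cells, of which 8 formed a high and 8 a low class with 6064 and 11188 counts outside the score genes. Of the 74 genes called higher, 70 had counts there, and 55 of the 70 were higher in its high class. The share of all tested genes that were higher there was not counted, nor were the genes called lower. These cells were also chosen by the score, so the count is a description. Gm21833 was at 15336 and 1519 CPM in these classes (93 and 17 counts), and Gm29055 at 5442 and 358 (33 and 4 counts). mt-Rnr1 was at 14512 and 11173 CPM. Fos and Jun went the other way, with 2639 and 4112 CPM and with 1484 and 2145 CPM. This is 1 library with no replicate, so no test was made.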

How the data were processed

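The authors deposited 1 table per library of estimated transcript counts per gene and well barcode, corrected for molecular identifier collisions and not scaled for depth. Inverting the correction gave whole counts within 3.64e-12 (tolerance 1e-06). Per the submitters' processing notes, BWA 0.6.2-r126 and mm10 were used, and per the labels' protocols the libraries were mCEL-Seq2. The counter and its annotation are not given in the sources used here.

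Cells were the barcodes of a library's own side of the set (10 left out in Dlk1+ tables, where the score rule drops them) with at least 2000 transcripts. No doublet caller was run. For each library, counts were summed over each class and Gm10800 and Gm26870 removed. Genes passed a filter on low counts, which the high or the low classes alone could meet. Sums were scaled by TMM, and limma-voom (limma 3.58.1, R 4.3.3) was fitted with library as a block. Calls are adjusted p under 0.05 (Benjamini-Hochberg). An edgeR test was planned, but the unit could not be checked automatically and limma-voom, planned as an alternative, took its place. Per-cell measures were taken as medians per class and compared by exact sign flips over 7 libraries (smallest p 0.0156), with detection at 1000 molecules for which 2 cells were too shallow. The fit was also run on simulated sums with a fixed spread and no library differences other than depth. No single cell dominated those sums, so they do not cover the uneven sums seen here. Transcript sequences and coordinates are from GENCODE M21 (GRCm38, the build named mm10), which 1479 of 1514 tested genes matched. Shared sequence was counted in words of 20 bases on both strands (Python 3.11.15, Biopython 1.88).

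The members, the 19 gene lists and the marker lists were chosen with earlier results of these data known. Named genes are the 15 of smallest p in each direction with 1 sign in all libraries, up to 4 called members per list, 2 members of a list with no call, and Dlk1, Timp3 and Malat1. Alternatives were other scaling, filters, cell minimums, score genes and class sizes, thinning, depth-matched classes, no block, and subsets of libraries.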

Additional observations from a re-analysis of the deposited data

Results flagged for a closer look

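In all, 59 sets of values were examined for a library standing apart, and 3 had one, where chance alone gives about 1 in 20. The sets were high-minus-low values over 7 libraries, and the median scores of the 4 Dlk1+ and of the 4 Dlk1- libraries. The mitochondrial share differed by 10.1 percentage points in Dlk1- replicate 3 against -1.07 to 2.98 in the others. That library also held 17 of the 27 cells with over 25% mitochondrial transcripts. Eif4a2 differed by 1.07 (log2) in Dlk1- replicate 2 against 0.14 to 0.27 in the others, from classes of 11 cells. H2-T23 differed by 2.98 in Dlk1+ replicate 2 against -0.33 to 0.66, from classes of 8 cells.

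The high-low effect was larger in Dlk1+ than in Dlk1- libraries for 6 genes by the interaction term of limma-voom, all of them predicted genes that hold the satellite or the second shared repeat. The differences were 1.25 for Gm21833, 1.60 for Gm37158, 1.04 for Gm29055, 1.39 for Gm37954, 1.47 for Gm21962 and 1.46 for Gm10715. Beside them stands that 1 cell gave 49.8% of the second family's transcripts in the high class of Dlk1+ replicate 1, and 1 cell gave 62.7% in that of Dlk1+ replicate 4, while the highest share of 1 cell in a Dlk1- high class was 23%.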

How the results depend on the processing

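The 80 calls became 42 with no replicate block, 34 with cells thinned (290 genes tested), 53 with classes formed within bins of depth, 50 in Dlk1- libraries alone, 40 on plate 5 alone (920 genes tested) and 42 without cells of a score over 50%. Leaving out each library gave 66 to 84. Of the 42 with no replicate block, 42 were among the 80. The high and low classes are paired because they come from the same library. Same-numbered Dlk1+ and Dlk1- libraries had correlations of 0.135, 0.0175 and 0.189 in their deviations, so numbers were not taken to pair the sort groups. In the load itself same-numbered libraries lay close, with an SD of paired differences of 2.66 points against 7.73 and 6.65 within the sort groups. The interaction gave 6 calls, 10 with library size alone, 0 to 10 with each library left out, 2 without cells of a score over 50% and 15 without cells over 25% mitochondrial. Per-cell measures passed with means in place of medians (mitochondrial share 2.99, ribosomal protein share -2.15, genes per cell -26.8), and the ribosomal protein share also at 1000 transcripts per cell (-1.85). The difference in load between sort groups was -0.148 with a replicate block too, 0.995 at 3000 transcripts, 1.52 with means and -3.30 to 2.91 with each library left out. The values that turned were 0.692 without Dlk1+ replicate 3, 2.91 without Dlk1+ replicate 4, 1.71 without Dlk1- replicate 1 and 1.00 without Dlk1- replicate 2. Of 802 values of 34 called genes under the alternatives, 667 kept sign and call, 133 lost the call and 2 turned. Those 2 were Top2a (0.083) and Txnip (-0.011) with classes formed within bins of depth, as did uncalled Xrn1 (-0.020) and Ifitm1 (-0.17). Of the other calls, mt-Co2 and mt-Atp6 turned without cells over 25% mitochondrial. Other uncalled genes that turned were H2-D1 (-0.050 with library size alone, -0.0066 thinned, -0.062 on plate 5), Ifitm1 (-0.022 with library size alone, -0.10 in Dlk1-), Dlk1 (-0.067 with no block), Dnajb1 (-0.14 in Dlk1+), H2-T23 (-0.016 in Dlk1-) and Ago2 (-0.11 on plate 5). The interaction of Gm21833 was -0.14 without cells of a score over 50%. The planned edgeR and DESeq2 fits were not run. The cause of these changes was not tested, other than fewer genes or samples where stated. Depth limits the test to the 1514 more abundant genes.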
